A study of Mus musculus with 8 samples.

Results

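The 8 genes described here carry out or control antigen presentation by major histocompatibility complex (MHC) class II molecules: H2-Aa, H2-Ab1, H2-Eb1, H2-DMa, H2-DMb1, H2-Oa, Cd74 and Ciita. Their RNA was measured in hippocampi of the inbred strains BTBR and B6 with Agilent arrays read in 1 color. Members were chosen by name, as all non-control probes whose gene name in the array files was one of these 8. This gave 14 probes out of 41174 on the array, and the 8 genes stand among 27373 gene names. The B6 group held 4 untreated male C57BL/6J mice, labeled wild type, and the BTBR group held 4 untreated males with the genotype BTBR T+ Itpr3tf/J. All mice were 5 months old, the tissue was the whole hippocampus, and each array carried the RNA of 1 mouse. BTBR is an inbred strain used as a model of autism, so the comparison is between whole genomes and not between alleles of Itpr3. A label field for strain background reads C57BL/6J in both groups, while title, source and genotype name BTBR for the second.

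MHC class II molecules are pairs of an alpha and a beta chain on the cell surface that show peptides from the endosomal pathway to CD4 T cells. In the endoplasmic reticulum the pair binds the invariant chain, Cd74, which blocks the peptide groove until proteases degrade it, and the remaining fragment is then exchanged for peptide with the help of H2-DM. In healthy brain these genes are known mostly from macrophages at the borders of the tissue, from rare dendritic cells and, at low levels, from microglia. In RNA from whole tissue, fewer cells of a type and less RNA per cell cannot be told apart.

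What each probe can see is set by its 60 bases, and the probes for the classical chains are shown because the results rest on them. Positions are those of mm9 in the array files, on chromosome 17, and sequences run 5′ to 3′ as they stand on the array. Exon, intron and UTR annotation of mm9 was not used here. H2-Ab1 had 4 probes, of which A_51_P215242 (chr17:34401723-34401782) and A_52_P570717 overlap over 31 bases and differ there at 2, in capitals. Counted from the 5′ end of A_51_P215242, these differences are T5A and T20A. The files give A_52_P570717 no position in the genome.
A_51_P215242: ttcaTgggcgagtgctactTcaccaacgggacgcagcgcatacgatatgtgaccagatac
A_52_P570717: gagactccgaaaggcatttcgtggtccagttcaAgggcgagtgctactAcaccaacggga
H2-Aa had 2 probes that share no bases, A_51_P119760 (chr17:34420627-34420686, minus strand) and A_52_P343306 (chr17:34421285-34421344, minus strand). H2-Eb1 had 1 probe, A_51_P393226, whose 60 bases are spread over 462 bases of the genome (chr17:34452050-34452511).
A_51_P119760: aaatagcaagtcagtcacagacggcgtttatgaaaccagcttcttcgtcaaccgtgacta
A_52_P343306: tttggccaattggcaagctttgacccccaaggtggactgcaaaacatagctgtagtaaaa
A_51_P393226: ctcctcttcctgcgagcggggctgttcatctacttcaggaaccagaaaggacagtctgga

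Between 57.4% and 72.3% of the spots on an array were well above background as Agilent Feature Extraction calls it, and 0 spots were saturated. The number of arrays limits the precision, and 4 against 4 arrays allow no exact permutation p below 0.0286. The arrays lay on 2 slides, with mice 1 and 2 of both strains on slide 1 and mice 3 and 4 on slide 2. Values are quantile normalized log2 intensities, and levels of different probes cannot be set against each other. All 8 arrays gave a signal well above background for 10 of the 14 probes. A probe was tested if it was well above background on at least 75% of the arrays of a strain, which 13 probes of 7 genes passed. The probe for Ciita, the coactivator that switches on class II transcription, did not. Its level was 7.55 to 7.78 in B6 and 7.73 to 7.93 in BTBR, its signal counted as well above background in 0 of 4 B6 and 1 of 4 BTBR mice, and no difference is given for it.

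The invariant chain and the chains of the classical class II molecules were higher in BTBR, by a mean of 0.56 to 1.17 on the log2 scale over the 7 probes that passed the filter in both strains (1.01 to 1.55 with the processed signal), but at 6 of these BTBR mouse 3 lay below B6 mouse 3, and no member passed limma. With empirical Bayes moderation and Benjamini-Hochberg adjustment over all 27981 tested probes, limma called 0 of the 13 member probes, against 7.61% of all tested probes (3.31% higher in BTBR). The lowest limma adjusted p of a member was 0.051. At an unadjusted p under 0.05, limma called 7 of the 12 member probes that passed the filter in B6, all of H2-Aa, H2-Ab1, H2-Eb1 and Cd74 and each higher in BTBR, against 9.11% of all tested probes called higher at that p. The H2-Ab1 probe A_52_P570717 also had such a p but passed the filter in BTBR alone. The rank product, the test of the study's methods, ranks differences between arrays and does not set them against the spread of each probe between mice. At a percentage of false prediction (pfp) of 0.05 or less it called 4 of the 13 probes, Cd74 and 3 of H2-Ab1, against 1.64% of all tested probes called higher in BTBR. Taking the brightest probe of each gene, 5 of the 7 tested genes had a positive difference, with a median of 0.56 beside 0.011 over all tested genes.

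**Figure D1:**
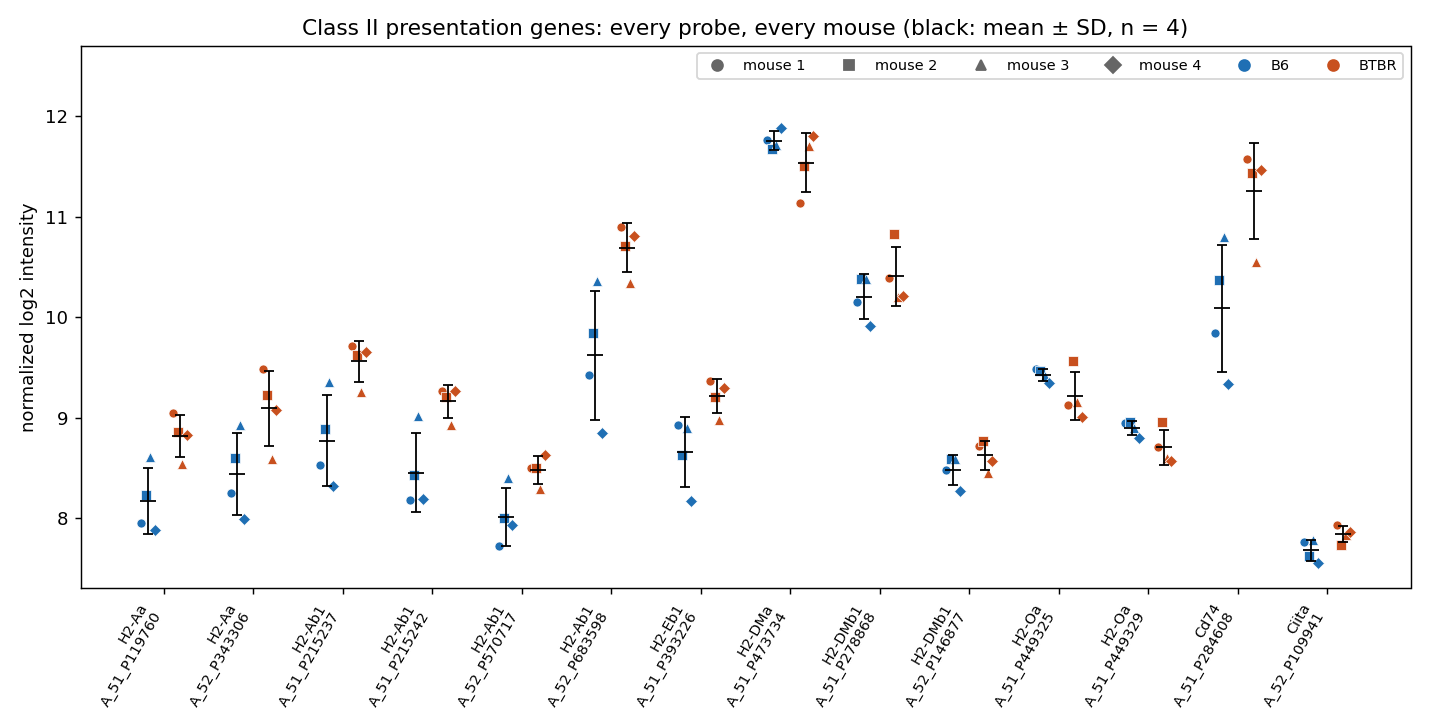
Normalized log2 intensity of each of the 14 member probes in each mouse (B6 blue, BTBR orange, symbol by mouse number), with the strain mean and SD in black (n = 4). For Cd74, H2-Aa and H2-Ab1 the B6 mouse 3 lies highest in B6 and reaches the BTBR mouse 3, the lowest of BTBR.

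Cd74 (NM_001042605, chromosome 18) had levels of 9.84, 10.38, 10.80 and 9.34 in B6 mice 1 to 4. In BTBR mice 1 to 4 it had levels of 11.58, 11.44, 10.55 and 11.47. All B6 values lay below 3 of these BTBR values, while BTBR mouse 3 was below B6 mouse 3, so the strains overlapped. The means were 10.09 ± 0.63 in B6 and 11.26 ± 0.48 in BTBR (SD, n = 4 each), a log2 difference of 1.17 (SE 0.33) or 2.25-fold. The limma adjusted p was 0.074, the exact permutation p was 0.0571 (2-sided) and the pfp of the rank product was 0.0018. Within slide 1 the difference was 1.40, and within slide 2 it was 0.94.

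H2-Ab1, the beta chain of the I-A molecule, was brightest at A_52_P683598 (NM_207105, chr17:34406059-34406118). The levels were 9.43, 9.84, 10.37 and 8.85 in B6 mice 1 to 4 and 10.90, 10.71, 10.34 and 10.81 in BTBR mice 1 to 4. BTBR mouse 3 lay just under B6 mouse 3, and the other 3 BTBR mice lay above all B6 mice. The log2 difference was 1.07 (SE 0.29, limma adjusted p = 0.060) and the pfp was 0.0034. The other 3 probes also had higher means in BTBR. The order of the 4 differences depends on the processing, since the processed signal scaled to its 75th percentile gave 1.39 at the brightest probe and 1.55 at A_52_P570717. A_51_P215237 (chr17:34404388-34404447) gave 0.79 (SE 0.21, limma adjusted p = 0.060), with a pfp of 0.023. A_51_P215242 gave 0.71 (SE 0.18, limma adjusted p = 0.051), with a pfp of 0.035. A_52_P570717, which shares bases with A_51_P215242, gave 0.46 (SE 0.14, limma adjusted p = 0.094) and a pfp of 0.16. Its signal was well above background in 2 of 4 B6 mice and in all 4 BTBR mice, so that it entered the test through BTBR. All 4 probes had an exact permutation p of 0.0571.

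A_51_P215237 was spotted 10 times on each array, which gives the noise between spots of the same hybridization. The SD over its 10 spots was 0.090 to 0.20 on an array, on the log2 scale before normalization. The SD between arrays, which holds the spread between mice as well as error in RNA preparation, labeling and hybridization, was 0.45 in B6 and 0.21 in BTBR.

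H2-Aa, the alpha chain of I-A, had the same mean difference at both probes. With A_52_P343306 (NM_010378) the levels were 8.25, 8.60, 8.92 and 7.99 in B6 mice 1 to 4 and 9.48, 9.22, 8.59 and 9.08 in BTBR mice 1 to 4. BTBR mouse 3 was level with B6 mouse 2 and below B6 mouse 3. The log2 difference was 0.65 (SE 0.23, limma adjusted p = 0.16), with an exact permutation p of 0.086. With A_51_P119760 the difference was also 0.65 (SE 0.17), and the smaller spread gave a limma adjusted p of 0.051. That probe had a signal well above background in 3 of 4 B6 mice. The size of both differences depends on the processing, with 1.44 and 1.55 from the processed signal and 0.47 and 0.43 from the deposited matrix. The pfp was 0.065 and 0.051, so the rank product as run here called neither. The study lists H2-Aa among its genes that differ between BTBR and B6.

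H2-Eb1 (X52641), the beta chain of the I-E molecule, was the only member in which the strains did not overlap. Its levels were 8.93, 8.63, 8.89 and 8.17 in B6 mice 1 to 4 and 9.37, 9.21, 8.98 and 9.30 in BTBR mice 1 to 4. The lowest BTBR value stood 0.051 above the highest of B6. The log2 difference was 0.56 (SE 0.17, limma adjusted p = 0.091), the exact permutation p was 0.0286, the smallest the design allows, and the pfp was 0.0998. The processed signal gave a difference of 1.01. The strains did not overlap in 14.2% of all tested probes, beside 1 of the 13 member probes.

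Of the members that load and edit peptides, 0 of 5 probes had an unadjusted limma p under 0.05, beside 18.5% of all tested probes in either direction. H2-DMa, the alpha chain of the H2-DM exchange factor, was 11.76, 11.68, 11.71 and 11.88 in B6 mice 1 to 4 and 11.14, 11.51, 11.70 and 11.81 in BTBR mice 1 to 4. The difference was -0.22 (SE 0.14, limma adjusted p = 0.46). Within slide 1 it was -0.39, and within slide 2 it was -0.04. Its probe A_51_P473734 (NM_010386) is spread over 564 bases of the genome (chr17:34274300-34274863).

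H2-DMb1 (NM_010387), the beta chain of H2-DM, was read by A_51_P278868 (chr17:34297109-34297168) and A_52_P146877 (chr17:34294265-34294324). The brighter, A_51_P278868, ranged from 9.91 to 10.38 in B6 and from 10.20 to 10.83 in BTBR. The differences were 0.20 (SE 0.16, limma adjusted p = 0.58) and 0.14 (SE 0.10, limma adjusted p = 0.51). H2-Oa (NM_008206) is the alpha chain of H2-DO, which inhibits H2-DM. Its probe A_51_P449325 (chr17:34232033-34232092) was 9.35 to 9.48 in B6 and 9.12, 9.56, 9.16 and 9.01 in BTBR mice 1 to 4. BTBR mouse 2 lay above all B6 mice and the other 3 below all of them. The difference was -0.22 (SE 0.11, limma adjusted p = 0.37), and the second probe, A_51_P449329 (chr17:34231964-34232024), gave -0.19 (SE 0.09, limma adjusted p = 0.32).

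**Figure D2:**
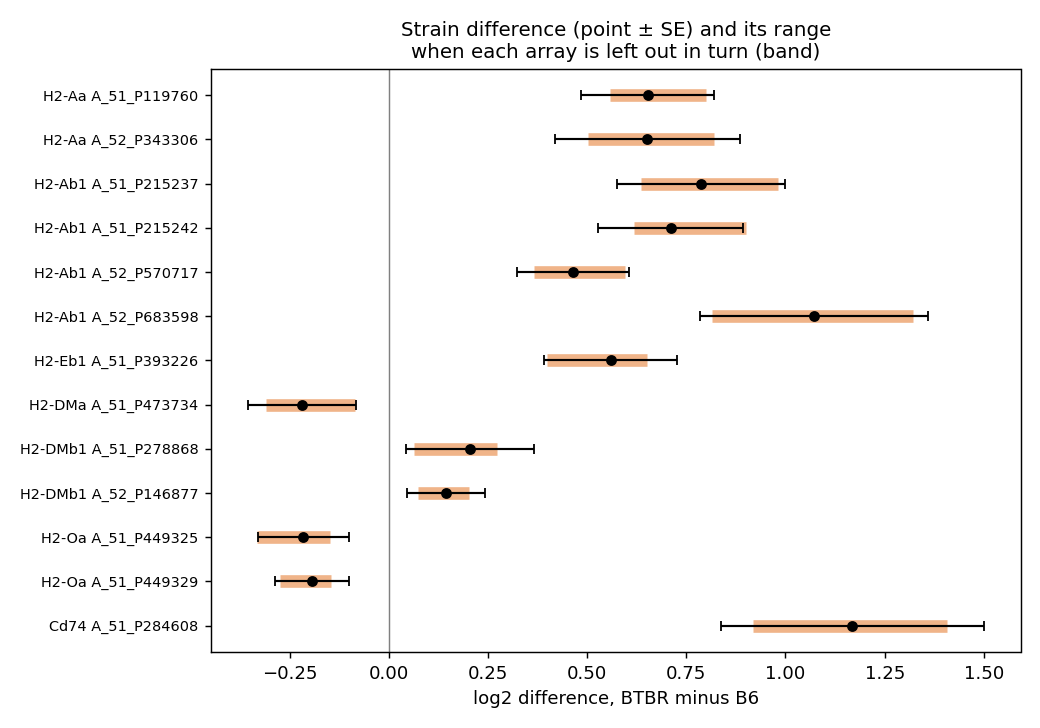
Log2 difference, BTBR minus B6, of the 13 tested member probes (point, with SE as the bar) and the range of that difference when each of the 8 arrays is left out in turn (band). The bands of H2-Aa, H2-Ab1, H2-Eb1 and Cd74 lie between 0.37 and 1.41, and those of the H2-DM and H2-O genes between -0.33 and 0.27.

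The limma calls turned on the mouse numbered 3 in each strain. The share of spots well above background was 72.3% in B6 mouse 3, the highest of B6, and 62.3% in BTBR mouse 3, the lowest of BTBR. It was lower still in B6 mouse 1, at 57.4%. Whether this share bears on the calls was not tested. Without B6 mouse 3, limma called probes of 3 genes, all higher in BTBR. Among probes that passed the filter in B6 these were Cd74 (1.40, adjusted p = 0.041), H2-Aa A_51_P119760 (0.80, adjusted p = 0.012) and 3 of H2-Ab1. The 3 of H2-Ab1 had differences of 0.90 to 1.32 (lowest adjusted p = 0.0028). In that fit 2.22% of all tested probes were called higher. H2-Ab1 A_52_P570717 (0.60) was called too, but it had passed the filter in BTBR alone. Without BTBR mouse 3, limma called 4 probes of the same 3 genes, with Cd74 at 1.41 (adjusted p = 0.027), against 3.43% of all tested probes called higher. Without BTBR mouse 2 it called H2-Oa A_51_P449325, which was then lower by a log2 difference of -0.33 (adjusted p = 0.028), against 3.67% of all tested probes called lower. Leaving out any of the other 5 mice gave 0 calls. B6 mouse 3 was the highest of B6 for 7 of the 8 probes of H2-Aa, H2-Ab1, H2-Eb1 and Cd74, B6 mouse 4 the lowest for 6, and BTBR mouse 3 the lowest of BTBR for all 8. With slide as a block limma called 0 members (adjusted p of 0.061 to 0.48), and within a slide, 2 mice against 2, the lowest adjusted p was 0.071. The strain difference of H2-Aa A_52_P343306 was 0.93 in slide 1 and 0.37 in slide 2. A limma test of the difference between slides had an adjusted p of at least 0.56 for the members, but it called 0 of all 27981 probes (2782 at an unadjusted p under 0.05) and is no evidence that the slides gave alike values.

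H2-Aa, H2-Ab1 and Cd74 varied together between mice once the strain means were removed, and no pair with H2-Eb1 passed the test. For each pair of H2-Aa, H2-Ab1, H2-Eb1 and Cd74, 6 pairs in all, the deviations of the 8 mice from their strain means were correlated, with exact permutation of the mice within strain (576 arrangements). H2-Ab1 and Cd74 gave Pearson r = 0.95 (permutation p = 0.0017, the smallest possible, adjusted p = 0.0069) and Spearman rho = 0.98 (permutation p = 0.0035, adjusted p = 0.014). H2-Aa and Cd74 gave r = 0.97 (permutation p = 0.0035, adjusted p = 0.0069) and rho = 0.95 (permutation p = 0.0069, adjusted p = 0.014). H2-Aa and H2-Ab1 gave r = 0.91 (permutation p = 0.0035, adjusted p = 0.0069) and rho = 0.93 (permutation p = 0.0052, adjusted p = 0.014). These 3 held without the 2 mice farthest from the median, with r = 0.97, 0.90 and 0.86. H2-Eb1 gave r = 0.70 with H2-Aa, 0.77 with H2-Ab1 and 0.75 with Cd74 (permutation p = 0.075, 0.095 and 0.062, adjusted p = 0.090, 0.095 and 0.090). Its rho was 0.52, 0.50 and 0.57 (permutation p = 0.24, 0.35 and 0.25, adjusted p = 0.30, 0.35 and 0.30). Without the 2 farthest mice r was 0.023, 0.33 and -0.075, so that with these values the relation of H2-Eb1 to the others rests on those mice. With the processed signal in their place, r was 0.93, 0.92 and 0.92 (permutation p = 0.012, 0.017 and 0.014, exact), so the result for H2-Eb1 depends on the processing, and r without 2 mice was not run there. With the means of each strain on each slide removed, r was 0.97 for H2-Ab1 and Cd74, 0.98 for H2-Aa and Cd74, 0.98 for H2-Aa and H2-Ab1, and 0.78 to 0.81 for H2-Eb1 with the others. The 16 arrangements left allow no permutation p below 0.125, which the first 3 reached. The median SD between mice over the 13 member probes was 0.33 in B6 and 0.21 in BTBR, beside 0.11 and 0.14 over all tested probes.

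**Figure D3:**
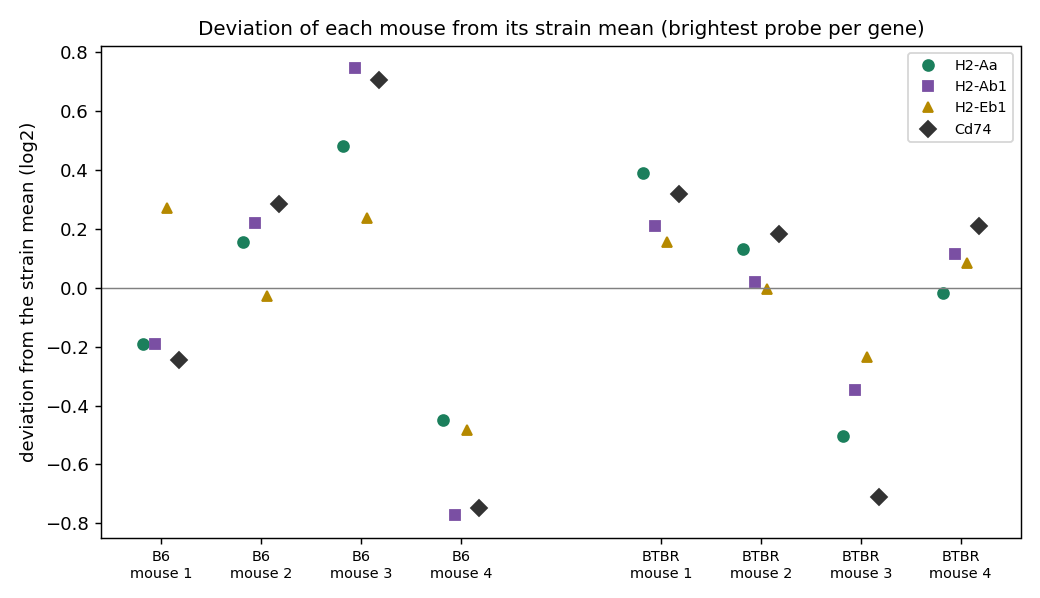
Deviation of each mouse from the mean of its strain (log2) for the brightest probe of H2-Aa, H2-Ab1, H2-Eb1 and Cd74. The genes lie together above 0 in B6 mouse 3 and below 0 in B6 mouse 4 and BTBR mouse 3.

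Among 18212 other gene names, the 5 whose deviations were most like the mean deviation of these 4 genes over the 8 mice were Slc13a4 (r = 0.98), Ide (0.97), Trim12c (0.97), B4galt5 (0.97) and Bmp7 (0.96). Slc13a4 encodes a sulfate transporter, Ide the insulin degrading enzyme and Bmp7 a bone morphogenetic protein. These r describe the same 8 arrays and were chosen as the highest of many. Their strain differences ran from -0.75 to 0.75. Slc13a4 differed by 0.75 (SE 0.49, limma adjusted p = 0.49) and Bmp7 by 0.51 (SE 0.22, limma adjusted p = 0.26). Ide was lower in BTBR by a log2 difference of -0.75 (SE 0.10, limma adjusted p = 0.0015). Trim12c differed by -0.01 and B4galt5 by 0.09.

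Other genes of the pathway gave 2 calls, Ctss and March8, both lower in BTBR. March8 was called in all 8 fits that leave out an array, and in 5 of them it was the 1 call. There were 3 calls when a gene was tested as the median of its probes or BTBR mouse 2 was left out. The added call was Jak2, higher in BTBR. With slide as a block there were 3 calls with 0 higher, the added one being Irf1. Of 44 genes listed by role, 43 were named on the array and 34 were tested at their brightest probe. Limma called 0 higher and 2 lower in BTBR against 7.82% of all 18398 genes tested in this way. At an unadjusted p under 0.05 it called 7 of the 34, beside 19.2% of all genes, and the rank product called 2, beside 4.33% of all genes. Positive differences were found for 16 genes and negative ones for 18, with a median of -0.004. The second set of class II chains was dim. H2-DMb2, H2-Ea-ps, H2-Eb2 and H2-Ob had no tested probe. No probe bears the name H2-Ea, the alpha partner of H2-Eb1. The probe named H2-Ea-ps was well above background in 1 of 4 B6 and 0 of 4 BTBR mice, with means of 7.70 and 7.69. H2-Ob, the partner of H2-Oa, was well above background on 0 of 8 arrays at both of its probes, as was H2-DMb2, a second beta chain gene of H2-DM.

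Of the 8 proteases and reductases that prepare antigen, 1 was called. Ctss, cathepsin S, the protease that completes the degradation of Cd74, was 15.72, 15.57, 15.36 and 15.27 in B6 mice 1 to 4 and 14.66, 15.17, 14.82 and 14.51 in BTBR mice 1 to 4. The strains did not overlap, and Ctss fell in BTBR by 0.69 (SE 0.15, limma adjusted p = 0.024). It was called in only 3 of the 8 fits that leave out an array, and was not called without B6 mouse 1, 2 or 3 or without BTBR mouse 1 or 4. Ifi30, a lysosomal thiol reductase, differed by 0.08 (SE 0.13, limma adjusted p = 0.82). Of 6 tested genes of co-stimulation and turnover, 1 was called. March8, a ubiquitin ligase that removes class II and other proteins from the surface, was 13.51 to 13.66 in B6 and 12.90, 13.05, 12.34 and 12.79 in BTBR mice 1 to 4. It fell by 0.82 (SE 0.14, limma adjusted p = 0.0068). Cd40 and Cd80 were too dim to test. Of the 3 genes of the CD4 T cell side, Cd4 was not tested, and Cd3e (0.04) and Lag3 (-0.25) were not called.

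Factors that drive class II transcription also lacked calls at their brightest probe in the main fit. All 7 factors of the class II promoter complex were tested and 0 were called, with Rfx5, a subunit of the RFX complex, at -0.06 (SE 0.10, limma adjusted p = 0.81). Of these 7 genes, 0 had an unadjusted p under 0.05. In the interferon gamma branch that induces Ciita, 11 of 13 genes were tested and limma called 0, while 3 had an unadjusted p under 0.05. Jak2 and Irf1, which alternatives to the main fit called, belong to this branch. The rank product called 0 of the genes in both groups. Ifng itself and Irf4 were too dim to test. Irf8 differed by -0.06 (SE 0.12, limma adjusted p = 0.84).

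**Figure D4:**
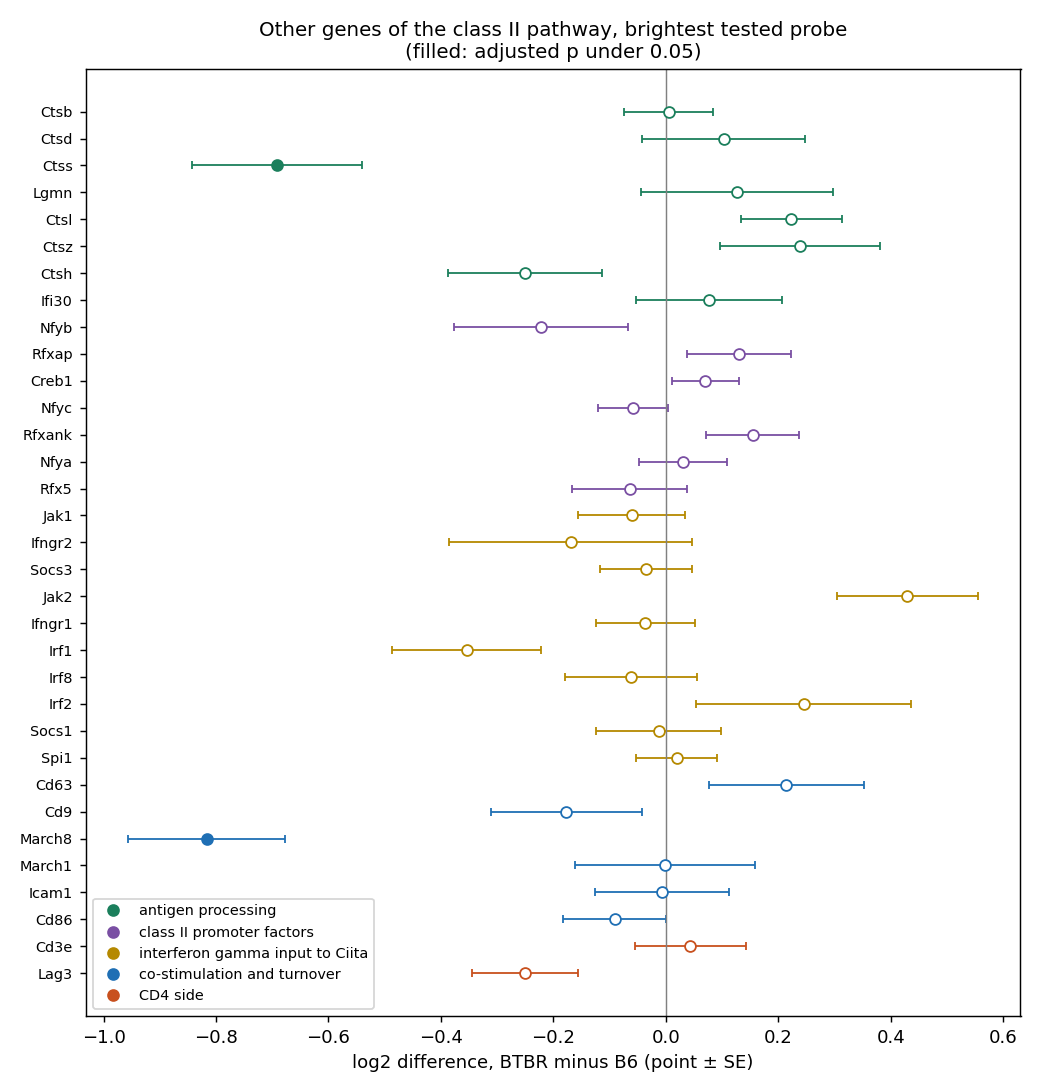
Log2 difference, BTBR minus B6, with its SE for 33 of the 34 tested genes of the pathway lists at their brightest probe, colored by role, filled where the limma adjusted p was under 0.05. Ctss and March8, both lower in BTBR, are the filled points.

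Apart from Cd74 and Ciita, the members lie close together on chromosome 17, between 34231964 and 34452511 in mm9. The array has 9 other probes of 7 named genes in that interval, and 6 probes of 5 genes were tested. Their differences ran from -0.10 to 0.02, with a median of -0.003 beside 0.011 over all tested probes, and limma called 0 of 6, with 0 at an unadjusted p under 0.05 and 0 by the rank product. Psmb8, Psmb9, Tap1 and Tap2, which serve the class I pathway, and Brd2, a bromodomain protein, made up this group.

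Promoters of class II genes share an X box, bound by RFX and CREB, followed by a Y box, bound by NF-Y. The sequences of 250 bases before and 50 bases after the start, from RefSeq (GRCm38.p6), held 6 promoters of 5 members, H2-Aa, H2-Eb1, H2-DMa, H2-DMb1 and H2-Oa. Searched on both strands, AGCAAC (letters from the X box) stood in 14.8% of all 32851 promoters, ATTGG (the Y box) in 37.4%, and AGCAAC followed by ATTGG after 15 to 30 bases on the same strand in 0.265%. Both letters in that order were found in H2-Eb1 and H2-Oa, with 27 and 28 bases between them. In H2-Aa and H2-DMb1 only ATTGG was found, as in 1 of the 2 promoters of H2-DMa. Exact letters were searched, so this does not show that these promoters lack an X box. The H2-DMb1 sequence holds agtaactgatgatgct, beside AGCAACtgatgatgct in H2-Eb1. GAAANNGAA, the interferon-stimulated response element, which stood in 8.56% of all promoters, was found in 0 of the 6. The 60 bases around these letters, in capitals, are shown for H2-Eb1, H2-Aa, H2-Oa and H2-DMb1.
H2-Eb1 (chr17:34305763-34305822, plus strand): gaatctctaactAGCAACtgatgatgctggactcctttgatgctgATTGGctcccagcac
H2-Aa (chr17:34287857-34287916, minus strand): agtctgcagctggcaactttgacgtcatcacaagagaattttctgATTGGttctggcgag
H2-Oa (chr17:34092291-34092350, plus strand): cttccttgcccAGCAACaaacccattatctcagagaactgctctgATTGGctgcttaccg
H2-DMb1 (chr17:34153085-34153144, plus strand): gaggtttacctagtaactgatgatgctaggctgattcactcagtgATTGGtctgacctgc
The ATTGG begins 59 bases before the start in H2-Eb1, 48 in H2-Aa, 43 in H2-Oa and 61 in H2-DMb1. Of these genes, H2-Eb1 and H2-Aa had mean differences of 0.56 and 0.65, and H2-Oa and H2-DMb1 of -0.22 and 0.20. The letters describe the reference strain, and sequence of BTBR was not used here.

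Cells that could carry these transcripts were followed with marker lists. All 8 markers of hippocampal neurons were bright enough to be tested, in keeping with the labeled tissue. The mean level of that list was 14.20 to 14.47 in B6 and 13.76, 13.79, 14.40 and 14.47 in BTBR mice 1 to 4, so that BTBR mice 1 and 2 lay below all others. Limma called 0 of these 8, with 1 at an unadjusted p under 0.05, and the rank product called Wfs1 (0.71). Of 12 microglial markers, all tested, limma called 1 higher and 5 lower in BTBR, beside 7.82% of all genes called in either direction. The mean level of the list was 12.12 to 12.22 in B6 and 11.85 to 12.11 in BTBR. That gap between the strains is narrow, and the list was not taken again without single genes such as Fcrls, whose probes disagree. Cx3cr1, a chemokine receptor of microglia, was higher by 1.41 (limma adjusted p = 1.1e-05) at its brightest probe and differed by -0.10 at the other. Fcrls fell by 1.16 (limma adjusted p = 2.4e-05) at its brightest probe, and its other probe was higher by 1.09 (limma adjusted p = 1.4e-04). C1qb, a subunit of complement C1q, fell by 1.01 (limma adjusted p = 6.0e-04). Of 8 markers of border macrophages, 7 were tested and 0 called, with the list at 9.02 to 9.60 in B6 and 9.16 to 9.51 in BTBR. None of them had an unadjusted p under 0.05 or a rank product call, and the defining marker Cd163 was well above background on 0 of 8 arrays.

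Markers of lymphocytes and dendritic cells were mostly dim or not called. Of 6 B cell markers, 4 were too dim to test, Blk and Pax5 on 0 of 8 arrays above background, and limma called 0 of the other 2. Cd79b, a chain of the B cell receptor complex, differed by -0.39 (SE 0.14, limma adjusted p = 0.16) and was the 1 with an unadjusted p under 0.05. The mean of the list was 8.33 to 8.73 in B6 and 8.23 to 8.38 in BTBR. A transcript outside the list, Igh-VJ558, annotated as immunoglobulin heavy constant alpha and made by cells of the B lineage, was 9.40 ± 0.72 in B6 and 11.69 ± 0.27 in BTBR (SD, n = 4 each). It was higher by 2.29 (SE 0.32, limma adjusted p = 0.0022), and its deviations gave r = 0.96 with the mean deviation of the class II genes. It was chosen after its values were seen, as one of the genes with the highest r of the 18212 ranked. Of 9 dendritic cell markers 6 were tested and limma called 0 (1 at an unadjusted p under 0.05), with the list at 8.85 to 8.92 in B6 and 8.77 to 8.81 in BTBR. Clec9a and Cd209a were well above background on 0 of 8 arrays. Of 6 T cell markers 3 were tested, and Cd3d was higher by 0.38 (limma adjusted p = 0.039), with the list at 8.55 to 8.75 in B6 and 8.81 to 8.91 in BTBR. Cd3d was well above background in 2 of 4 B6 and 4 of 4 BTBR mice, so that it entered the test through BTBR. Without it the list overlapped, at 9.00 to 9.13 in B6 and 9.13 to 9.29 in BTBR.

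Tissue at the border of the hippocampus varied between mice. The mean level of 6 choroid plexus markers was 11.79, 12.58, 12.69 and 11.03 in B6 mice 1 to 4 and 13.44, 13.32, 11.41 and 11.39 in BTBR mice 1 to 4. Like Cd74, it was highest of B6 in mouse 3 and lowest of B6 in mouse 4. It was also higher in BTBR mice 1 and 2 than in mouse 3, but unlike Cd74 it was low in BTBR mouse 4. The order of the B6 mice was not particular to it. The blood list was also highest of B6 in mouse 3 (11.10) and lowest in mouse 4 (10.13), but highest of BTBR in mouse 3. The meningeal, border macrophage and endothelial lists were highest of B6 in mouse 3 too. The mean level of 8 meningeal markers was 10.68, 11.20, 11.81 and 10.69 in B6 mice 1 to 4 and 11.76, 10.97, 11.41 and 12.10 in BTBR mice 1 to 4. Limma called 0 of 6 choroid plexus and 0 of 8 meningeal markers at their brightest probe, with medians of 0.37 and 0.33. At an unadjusted p under 0.05 these were 0 and 2, and by the rank product 0 and 3. Igf2, a growth factor on the meningeal list, had an adjusted p of 0.060 there (1.30) and of 0.033 at its second probe (1.24). Of 5 blood markers 0 were called (10.13 to 11.10 in B6 and 10.45 to 11.68 in BTBR), and of 5 endothelial markers 0 were called (10.82 to 11.16 and 10.92 to 11.09), with 0 in both lists at an unadjusted limma p under 0.05 or by the rank product. The part of these cells and tissues in the class II differences was not tested.

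**Figure D5:**
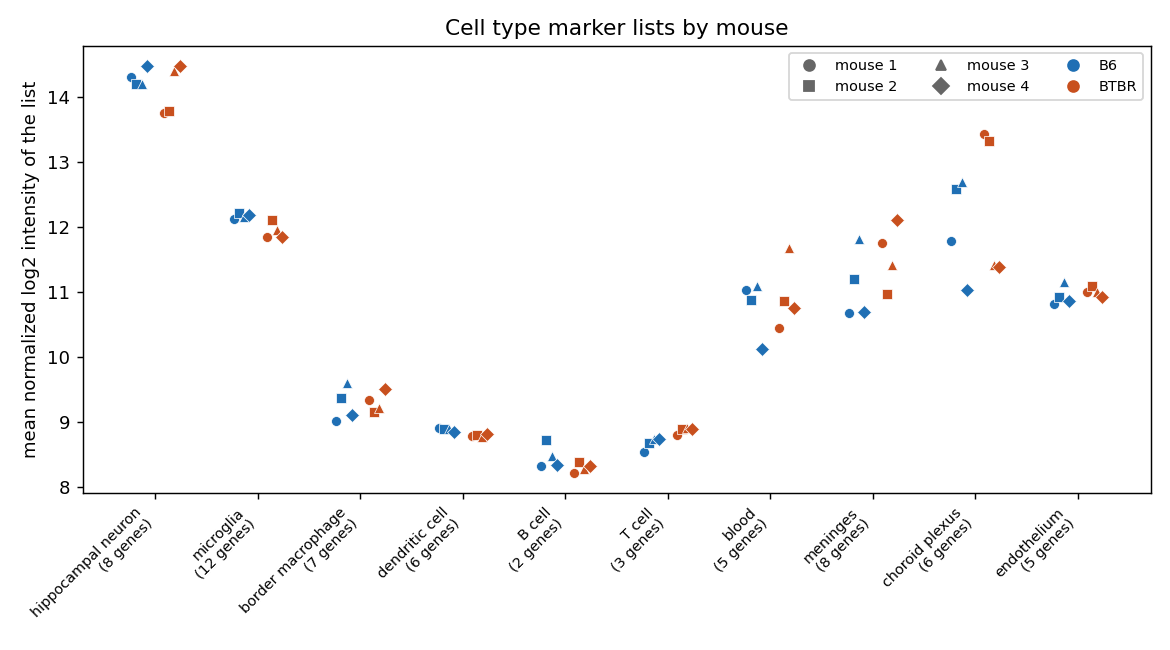
Mean normalized log2 intensity of each cell type marker list in each mouse (B6 blue, BTBR orange, symbol by mouse number), over the genes tested. The strains part narrowly in the microglia list (lowest B6 12.12, highest BTBR 12.11) and the dendritic cell list (8.85 and 8.81). Those lists were not taken again without single genes. The T cell list overlaps once Cd3d is left out, and the choroid plexus list spans 11.03 to 13.44 over the mice.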

How the data were processed

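The authors hybridized Cy3-labeled RNA of each mouse to an Agilent array and deposited spot intensities, not scaled between arrays. Per the file headers these were read by Feature Extraction 10.7.3.1, and the submitters' processing notes name version 9.1. The authors also deposited a matrix of log2 values, background subtracted and quantile normalized with Agi4x44PreProcess defaults. Here the median local background was subtracted from mean intensity (minimum 0.5), 50 was added, and quantile normalization followed on the log2 scale. The offset compresses differences of dim probes. Replicate spots were summarized by their median. Controls and 154 probes flagged as outliers on an array were left out, and 27981 of 41020 probes passed the filter on dim probes.

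Strains were compared with limma 3.58.1 (R 4.3.3; adjusted p under 0.05 over all tested probes), with a rank product over the 16 pairs of arrays (100 permutations of probes within arrays) and with exact permutation of the 8 arrays (70 assignments). Scripts were tested on simulated data. Python 3.11.15, NumPy 2.4.6, SciPy 1.17.1, pandas 2.3.3 and matplotlib 3.10.9 did the rest. Pathway and marker lists, written from general knowledge, were compared at the brightest probe of each gene. Named were all member probes, called pathway genes and fixed ones (H2-Ea, H2-Ob, Ctss, Ifi30, Rfx5, Irf8; another is not reported here), up to 3 called markers per list, dim defining markers, and the 5 most similar genes. Cd3e, Lag3, Cd40, Cd80, Cd4, Ifng, Irf4, Jak2, Irf1, H2-DMb2, H2-Ea-ps, H2-Eb2, Igf2, Wfs1, Cd79b, Igh-VJ558 and the genes between the members were chosen by name once values had been seen. Members and lists were chosen with earlier results of these data known. Alternatives were other background corrections, scalings, filters and summaries, the deposited matrix, each array left out, replicate or slide as a block, limma with trend and robust options, and a pfp of 0.01. The quantitative PCR measurements were not analysed here.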

Additional observations from a re-analysis of the deposited data

Results flagged for a closer look

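For Cd74, BTBR mouse 3 stood apart from the other BTBR mice: its distance to the nearest of them was 0.869 of the whole range of the group, above Dixon's critical value for 4 samples. Its level was 10.55, and the other BTBR mice had levels of 11.44 to 11.58. All 13 tested probes were examined in both strains, 26 groups in all, and chance alone flags about 1 in 20 groups.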

How the results depend on the processing

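The direction of each of the 13 member probes held in all 261 recomputed differences, of which 12 became called and 0 reversed. The rank product called Cd74 and H2-Ab1 in all 16 alternatives run for it and H2-Aa in 4. Limma called 0 member genes in the alternatives except under median centring (1, H2-Aa) and leaving out an array (0 to 3). The 2 pathway genes called became 1 to 3 when an array was left out (1 in 5 of the 8 fits, each without Ctss). Over all probes a pfp of 0.01 left 578 calls of 1100. With the processed signal minus its 75th percentile, which differs in background, offset and scaling, the log2 differences of the dimmer probes were over 1.5 times as large, at 1.55 and 1.44 for H2-Aa, 1.01 for H2-Eb1 and 1.33 to 1.55 for H2-Ab1, and limma still called none, while the rank product called H2-Aa, H2-Ab1 and Cd74. The deposited matrix gave smaller ones, 0.43 and 0.47 for H2-Aa, 0.42 for H2-Eb1 and 0.28 to 0.95 for H2-Ab1. With that processed signal the correlations of H2-Eb1 with H2-Aa, H2-Ab1 and Cd74 became 0.93, 0.92 and 0.92 (permutation p = 0.012, 0.017 and 0.014, exact), and over the 6 pairs and the alternatives run for them, single arrays not left out, r ran from 0.70 to 0.98. The cause was not tested. Removing slide means, chosen after seeing the data, gave 0.98 for H2-Aa with H2-Ab1 and with Cd74 and 0.97 for H2-Ab1 with Cd74, at a permutation p of 0.125, the smallest that exact test allows. With the replicate number as a block, limma called 1650 probes in place of 2129 and 0 members. Deviations of equally numbered mice correlated at -0.14, 0.51, -0.10 and 0.39, beside -0.50 to 0.37 for mice with unlike numbers. These r cannot settle whether the numbers pair the mice, since deviations from a mean of 4 mice depend on each other. The block changed no call of a member, but the limma adjusted p of H2-Aa A_51_P119760 rose from 0.051 to 0.14. Signal near background limits what can be said of Ciita, H2-Ob and Cd163.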
